A study of Mus musculus with 24 samples.

Results

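Red blood cell genes were followed in brain and liver of newborn mice by all probes for 9 named genes: the globins Hba-a1, Hba-x, Hbb-b1, Hbb-b2, Hbb-bh1 and Hbb-y, and the erythroid genes Alas2, Slc4a1 and Klf1. A probe was taken where the array's name for it, or the current symbol of its accession, was 1 of these. Probes were found for 8 of the 9 genes, 13 probes in all, out of 41174 probes for 27845 gene names, and Hbb-b2 had none under its own name. The 24 single-colour arrays held 4 arrays of each tissue from 3 groups of female neonates. NC, the controls, were made by intracytoplasmic sperm injection, that is by fertilising an oocyte with a sperm put into it by needle. CC animals were clones made from cumulus cells, the somatic cells around an oocyte, and G20 animals came after 20 rounds of serial cloning from cumulus cells. All 3 groups carried the same genetic background in the labels, (C57BL/6 x DBA2) x 129/Sv, and no group carried a transgene or a treatment.

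Hemoglobin is a tetramer of alpha-type and beta-type globin chains around heme. In the mouse, the first red cells from the yolk sac make the embryonic chains encoded by Hba-x, Hbb-y and Hbb-bh1, and definitive red cells, made in the fetal liver and later in bone marrow, make the adult chains. At birth the liver still holds red cell precursors beside hepatocytes, whereas the brain makes no blood and holds red cells in its vessels. Reticulocytes, the youngest circulating red cells, have lost the nucleus and still carry globin messenger RNA. The sources used here do not give whether vessels were rinsed before RNA was made. Blood in the vessels and RNA of the tissue itself cannot be told apart in these samples, and neither can fewer cells of a type and less RNA per cell.

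Upstream sequence is shown for a pair of adult globins, a pair of embryonic globins and 2 erythroid genes, so that the genes whose levels are compared can be seen side by side. Of the 9 genes, 5 were matched in a table of RefSeq promoters (build GRCm38.p6), and Hbb-bt, the current symbol of the accession behind the Hbb-b1 probes, was added. Each line gives the 120 bases before the gene's start, 5′ to 3′ on the gene's strand. Capitals mark CACCC, the core of the motif that the factor KLF1 binds, GATAA, the core of the GATA factors' motif, CCAAT, and the TATA-type motif ATATAA, each searched on both strands with no overlap between matches.
Hba-a1: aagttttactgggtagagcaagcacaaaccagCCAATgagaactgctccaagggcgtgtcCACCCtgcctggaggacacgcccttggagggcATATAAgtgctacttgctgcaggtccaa
Hbb-bt: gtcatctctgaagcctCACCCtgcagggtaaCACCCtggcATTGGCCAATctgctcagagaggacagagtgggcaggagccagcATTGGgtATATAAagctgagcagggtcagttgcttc
Hba-x: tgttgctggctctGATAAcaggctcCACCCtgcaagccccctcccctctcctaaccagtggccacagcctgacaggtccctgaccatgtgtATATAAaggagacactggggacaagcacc
Hbb-y: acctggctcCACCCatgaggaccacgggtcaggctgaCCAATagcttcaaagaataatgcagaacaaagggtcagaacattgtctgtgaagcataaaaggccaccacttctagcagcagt
Alas2: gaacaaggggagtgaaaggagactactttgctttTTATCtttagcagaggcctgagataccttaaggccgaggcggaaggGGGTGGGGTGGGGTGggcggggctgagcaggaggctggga
Klf1: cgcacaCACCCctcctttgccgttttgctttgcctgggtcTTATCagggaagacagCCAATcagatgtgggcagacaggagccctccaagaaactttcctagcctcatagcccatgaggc
The stretches lie at chr11:32283552-32283671 (Hba-a1, plus strand), chr7:103813924-103814043 (Hbb-bt, minus strand), chr11:32276480-32276599 (Hba-x, plus strand), chr7:103853208-103853327 (Hbb-y, minus strand), chrX:150547297-150547416 (Alas2, plus strand) and chr8:84901862-84901981 (Klf1, plus strand). CACCC was found in all 6 windows, against 31.7% of the 32851 windows of 120 bases in the table. ATATAA was found before Hba-a1, Hbb-bt and Hba-x, against 4.47% of windows, and at 28 to 29 bases from the gene's start. CCAAT was found in 4 of the 6, against 21.3%, and GATAA before Hba-x, Alas2 and Klf1, against 10.5%. These are matches of letters and not binding sites.

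The probes for each gene differ in what they can separate. Hba-a1 had 2 probes, on chr11:32183775-32183956 and chr11:32196744-32196803 (mm8, the build in the array's annotation, to which all probe positions refer). Hbb-b1 had 4, on chr7:103686419-103686478, chr7:103687307-103687366, chr7:103687338-103687397 and chr7:103687624-103687683. Each of the 4 carries an accession now named Hbb-bt, and the array lists an Hbb-b2 accession beside it for some of them, so the values named Hbb-b1 cannot be assigned to 1 adult beta gene. Hbb-bh1 had 2 overlapping probes on chr7:103715614-103715693. The remaining genes had 1 probe each: Hba-x on chr11:32177668-32177727, Hbb-y on chr7:103726719-103726778, Slc4a1 on chr11:102165032-102165091, Klf1 on chr8:87795087-87795146 and Alas2 on chrX:145911166-145911225. Where a gene had several, the probe with the highest mean was tested. Levels are log2 signals relative to the array's 75th percentile, which is 0, and they were compared for 1 probe between samples, never between probes.

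Between 53.6% and 70.6% of probes were well above background on an array, with the lowest shares on CC arrays in both tissues. Each group of a tissue was hybridised on a slide of its own, and CC arrays were scanned in a session apart from NC and G20, so every comparison here, G20 against NC and liver against brain included, is also one between slides. These cannot be told apart from the groups, and for CC neither can the scan session. Between liver and brain, the scan session also went with the tissue in NC and G20 and cannot be told apart from it there. Defining markers of the labelled tissues were present: all 10 neuron markers were measured in brain and all 11 hepatocyte markers with a probe in liver. No probe of these genes was marked as saturated. The adult globin probes were close to the top of the range, reaching the brightest probe of some arrays and never below 24.4% of its signal in liver or 7.47% in brain. Spots with the software's outlier flag were not used, which removed the tested Hba-a1 and Hbb-b1 probes on 2 of the 4 CC liver arrays, Slc4a1 on 3 of them, and Hbb-b1 on 1 NC brain array.

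**Figure D1:**
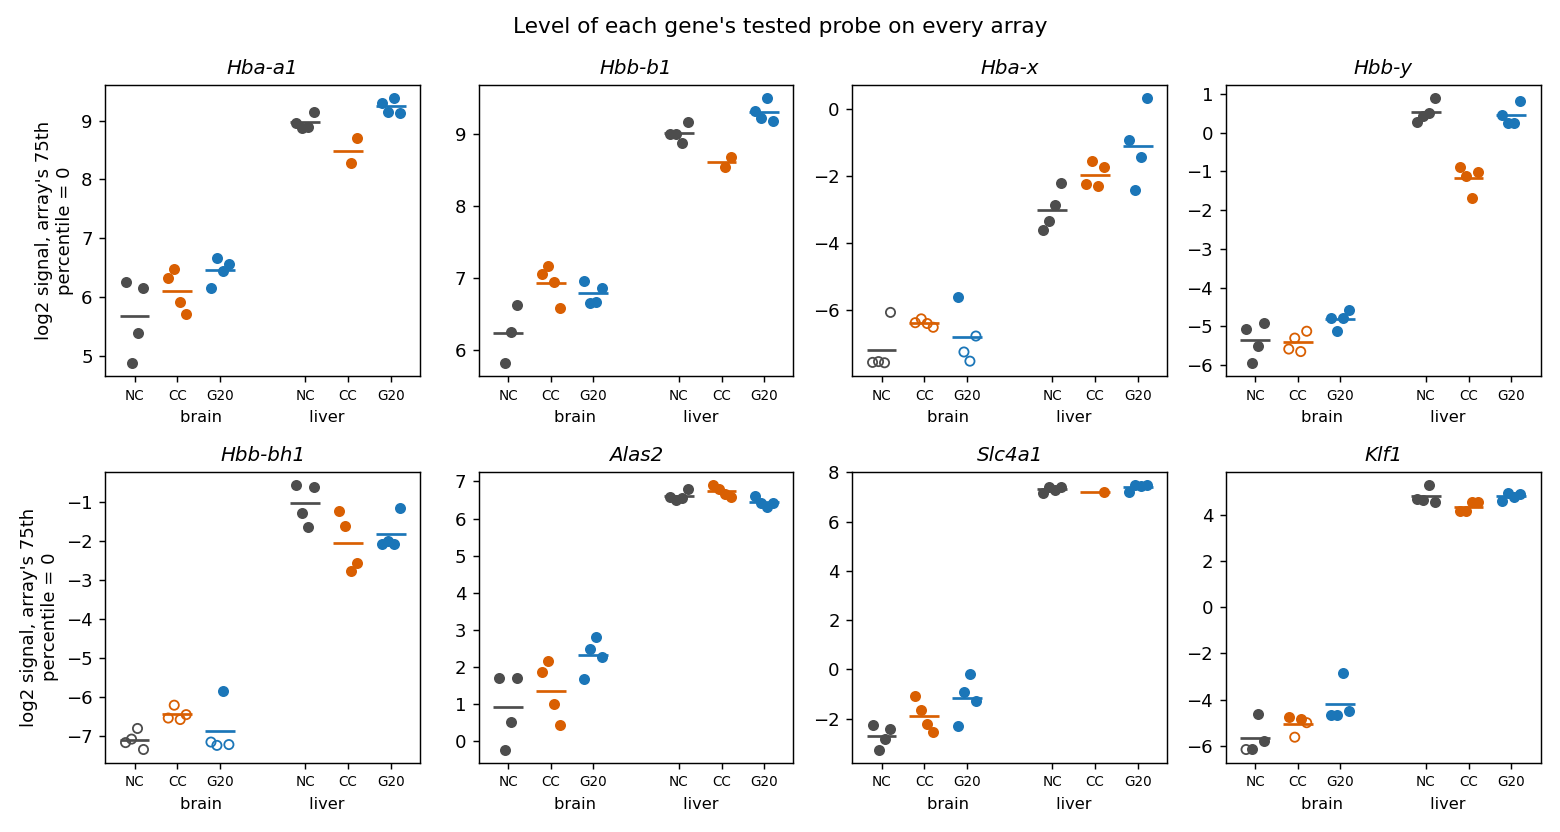
Log2 signal of the tested probe of each gene on every array (array's 75th percentile = 0), by tissue and group; filled points were well above background, open points were not, and bars are group means. All 8 genes lay higher in liver than in brain on every array, and Hba-x and Hbb-bh1 were above background on at most 1 array of a brain group.

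All 8 genes with a probe were higher in liver than in brain, in controls and in both kinds of clone. The size of the difference ran from 6.82-fold for adult beta globin to 1426-fold for Klf1 in NC animals, among genes measured in both tissues. It was largest for Klf1 and Slc4a1, smaller for Alas2 and the embryonic beta globin Hbb-y, and smallest for the adult globins. Liver and brain differed for most of the array: 89.1% of 19881 genes were called at a limma adjusted p under 0.05 in NC, 45.8% higher and 43.2% lower in liver. In CC 84.5% were called, 43.5% higher and 41.0% lower, and in G20 89.1%, 45.8% higher and 43.4% lower. The count of 8 of 8 higher stands beside these shares, and over all genes tested the median difference in NC was 0.04.

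Klf1 encodes the erythroid Krüppel-like factor that activates adult beta globin and many other red cell genes. In NC liver its level was 4.68, 4.65, 5.30 and 4.57, and in NC brain it was -6.17, -6.14, -4.63 and -5.79, of which 3 arrays were above background. The tissues lay far apart, with no overlap. The log2 difference was 10.48 ± 0.35 (SE, n = 4 in each tissue; limma adjusted p = 1.76e-17), and it was 8.98 ± 0.35 in G20 animals, where all 4 brain arrays were above background (adjusted p = 2.7e-16). In CC the fitted difference was 9.41 ± 0.35, with 2 of 4 brain arrays above background. With brain arrays at background, the NC and CC sizes for Klf1 are not exact.

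Slc4a1 encodes band 3, the anion exchanger of the red cell membrane. Its NC levels were 7.15, 7.40, 7.28 and 7.42 in liver and -2.25, -3.25, -2.84 and -2.41 in brain. Every liver array exceeded every brain array, by 10.00 ± 0.35 in NC (SE, n = 4; limma adjusted p = 1.71e-15), a fold of 1023. The difference was 8.58 ± 0.35 in G20, and 9.08 ± 0.55 in CC, where only 1 liver array was left after outlier spots were removed.

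Alas2 encodes the erythroid 5-aminolevulinate synthase, the first enzyme of heme synthesis. Liver levels in NC were close together, at 6.59, 6.51, 6.55 and 6.78. Brain levels spread more widely, at 1.72, -0.22, 0.52 and 1.71, with replicate 2 lowest. The difference was 5.68 ± 0.36 in NC (SE, n = 4; limma adjusted p = 2.03e-12; 51.1-fold), 5.37 ± 0.36 in CC and 4.12 ± 0.36 in G20.

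Of the adult globins, Hba-a1 encodes an adult alpha chain. Its tested probe stood at 8.96, 8.88, 8.90 and 9.15 in NC liver and at 6.26, 4.88, 5.38 and 6.16 in NC brain. The tissues did not overlap, and the difference was 3.30 ± 0.24 (SE, n = 4; limma adjusted p = 6.04e-11; 9.86-fold). It was 2.38 ± 0.29 in CC (2 liver arrays) and 2.79 ± 0.24 in G20.

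The tested Hbb-b1 probe, for the adult beta chain, gave 8.994, 8.997, 8.87 and 9.16 in NC liver, and 5.83, 6.25 and 6.63 on the 3 NC brain arrays left. Liver was again above brain throughout, by 2.77 ± 0.16 (SE; limma adjusted p = 4.62e-12; 6.82-fold), with 1.67 ± 0.18 in CC and 2.51 ± 0.15 in G20. The 4 probes named Hbb-b1 differed in size: in NC their differences between the tissues were 2.63, 2.77, 3.51 and 4.72 on the log2 scale. Quantile normalization lowered the adult globin differences and ended both calls in G20, with 0.51 for Hba-a1 (limma adjusted p = 0.0966) and 0.18 for Hbb-b1 (adjusted p = 0.266).

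The embryonic globins were detected in every liver array. Hbb-y, the embryonic beta-type chain epsilon y, had NC levels of 0.27, 0.43, 0.50 and 0.89 in liver and -5.06, -5.94, -5.52 and -4.92 in brain, where all 4 NC arrays were above background. The difference was 5.88 ± 0.21 (SE, n = 4; limma adjusted p = 6.42e-17; 58.9-fold). In G20 it was 5.26 ± 0.21, and in CC, where no brain array was above background, liver exceeded brain by at least 18.9-fold (adjusted p = 2.86e-14).

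Hba-x, the embryonic alpha-type chain zeta, stood at -3.62, -3.35, -2.86 and -2.20 in NC liver. No NC brain array was above background for it, so liver exceeded brain by at least 13.6-fold (limma adjusted p = 3.61e-08). In CC the bound was 16.8-fold, and the CC call was lost with normexp correction (adjusted p = 0.071). Such a bound sets the liver mean against, on each brain array, the higher of the dimmest level measured above background and the probe's own level.

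Hbb-bh1, the embryonic beta-type chain beta h1, had liver levels of -0.56, -1.27, -1.63 and -0.62 in NC. Brain was not above background on any NC array, so the excess in liver was at least 58.3-fold (limma adjusted p = 1.83e-13), and at least 15.9-fold in CC. A single G20 brain array, replicate 3, was above background for Hbb-bh1, at -5.84, and a single one, replicate 1, for Hba-x, at -5.63.

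**Figure D2:**
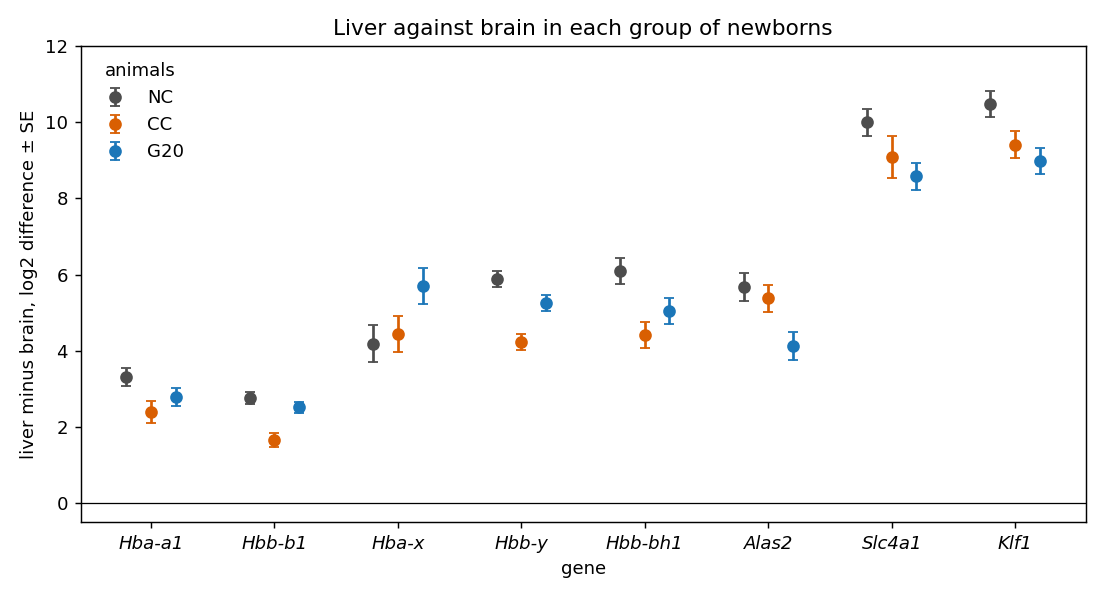
Liver minus brain as log2 difference ± SE from the limma fit, for each gene and group of newborns. Klf1 and Slc4a1 lay highest and the adult globins lowest in every group; for Hba-x and Hbb-bh1 in all groups, Hbb-y in CC and part of the Klf1 arrays in NC and CC the brain level was at or near background, so the point is not a bound and the text gives bounds for those groups with no brain array above background.

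Ratios within an array show how the genes' differences between the tissues compare. Relative to Alas2, Hba-a1 was lower in liver than in brain by a log2 difference of 2.37 in NC and 1.33 in G20, and its second probe by 2.43 and 1.69. For Hbb-b1 the size depended on the probe: the 4 probes were lower by 0.96, 2.17, 3.05 and 3.17 in NC and by 0.84, 1.20, 1.48 and 1.61 in G20. In liver these adult globin probes lay at 24.4% or more of the brightest probe's signal, near the top of the range. Slc4a1 over Alas2 went the other way, by 4.32 in NC and 4.46 in G20. Klf1 over Alas2 was higher in liver by 4.80 and 4.86, with 3 of 4 NC brain arrays and all 4 G20 brain arrays above background. Since brain and liver arrays of NC come from the same 4 animals, exchange within pairs allows no two-sided p below 0.125, and these ratios are given without a test.

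Hbb-y over Alas2 differed by 0.21 between liver and brain in NC and was higher in liver by 1.14 in G20. In CC brain Hbb-y was not above background, so no ratio is given there. Set against Hba-a1 on the same array, Hbb-y was higher in liver than in brain by 2.58 on the log2 scale in NC and by 2.48 in G20, without a test. Of the embryonic globins, only Hbb-y could be set against an adult globin in brain.

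Genes around the globins mostly followed the tissue in the same direction. Over all genes, 45.8% were called higher in NC liver and 43.2% lower. Of 15 measured genes of heme synthesis and iron uptake, 15 were called higher in NC liver, with a median difference of 3.83, among them the mitochondrial iron importer Slc25a37 at 6.20 ± 0.25 (SE, n = 4; limma adjusted p = 1.15e-15). Of 18 red cell membrane and cytoskeleton genes, 16 were higher and 1, Add2, a cytoskeletal adducin, was lower. Of 14 erythroid transcription factors and receptors, 11 were higher, Kit and the globin-silencing factor Bcl11a were lower, and Gata2 did not pass. Markers of the other blood cells of a newborn liver were higher too: 9 of 9 of megakaryocytes and platelets, 12 of 12 of neutrophils and their precursors and 8 of 8 of lymphocytes.

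In brain, a defining gene of nucleated red cell precursors was at or near background. Gata1, the erythroid master regulator, was above background on 0 of 4 NC, 0 of 4 CC and 1 of 4 G20 brain arrays. Ahsp, the chaperone of free alpha chains, was above background on all 12, as were both adult globins, Alas2 and Slc4a1. Of the theta globin genes, Hbq1a was above background in brain on 4 NC, 3 CC and 4 G20 arrays. Hbq1b was above background in brain on all 4 G20 arrays and on no NC or CC array, so it was kept there through G20 alone.

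In brain, none of 6 tested genes was called between G20 and NC, and all 6 fitted differences were positive. Over all 18299 genes 1.77% were called, 1.24% higher and 0.536% lower in G20. At an unadjusted limma p under 0.05, 19.3% of all genes passed, and so did Slc4a1, Alas2, Hbb-b1, Hba-a1 and Hbb-y (p from 0.00353 to 0.0242). No adjusted p of theirs was below 0.088 in the limma fit. Hba-x and Hbb-bh1 were too dim to be tested in brain, and Klf1 entered only through G20, the group in which it is high, so its difference is a description without a test.

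The G20 levels of Slc4a1 in brain were -2.28, -0.93, -0.19 and -1.29, against -3.25 to -2.25 in NC. G20 replicate 1 lay within the NC range and the other 3 above it. The difference was 1.52 ± 0.42 (SE, n = 4 against 4; limma adjusted p = 0.088). With each array left out in turn it ranged from 1.19, without G20 replicate 3 (adjusted p = 0.129), to 1.89, without G20 replicate 1 (adjusted p = 0.0481).

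Klf1 in G20 brain stood at -4.67, -4.68, -2.85 and -4.52. Replicate 3 was far above the other 3, and NC replicate 3, at -4.63, reached the G20 levels. The difference was 1.503 (n = 4), and 1.06 without G20 replicate 3.

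Alas2 in G20 brain was 1.70, 2.497, 2.81 and 2.27, of which replicate 1 lay within the NC range. The difference was 1.39 ± 0.47 (SE, n = 4; limma adjusted p = 0.148). For Hba-a1 the G20 arrays lay between 6.15 and 6.66 and overlapped NC, with a difference of 0.78 ± 0.28 (adjusted p = 0.165). Hbb-b1 differed by 0.55 ± 0.19 (adjusted p = 0.148) and Hbb-y by 0.54 ± 0.21 (adjusted p = 0.19).

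Other lists in G20 brain were as follows. No gene was called among 14 of heme synthesis and iron uptake (median 0.10), 10 of the membrane list (0.06), 11 erythroid factors (0.14) or 16 other erythroid genes (0.21), beside a median of 0.03 over all genes. The member of these with the largest difference was Ahsp, at 1.56 ± 0.48 (SE; limma adjusted p = 0.117). Hepatocyte markers, 8 of 12 measured, summed to log2 levels of 0.95 to 1.33 in NC and -0.38 to 1.16 in G20 brain, and none was called. Most single markers did not follow this sum: Ttr and Trf differed by -1.44 and -0.40, and the others had positive values (list median 0.30). The sum is therefore not read as an amount of hepatocyte RNA in brain. Neuron markers summed to 7.63 to 7.71 in NC and 7.56 to 7.69 in G20. The part of any other cell type in the erythroid differences was not tested.

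CC brain gave 1 call of 6 against NC, Hbb-b1, in a comparison in which 69.3% of genes were called, 41.5% higher and 27.8% lower. Its CC levels were 7.06, 7.18, 6.94 and 6.58, and NC levels were 5.83, 6.25 and 6.63. Only CC replicate 4 fell into the NC range. The difference was 0.70 ± 0.19 (SE; limma adjusted p = 0.00552), and it was lost with normexp background correction (0.375) and turned negative under quantile normalization (-0.03) and in the deposited matrix (-0.11). The other 3 Hbb-b1 probes differed by 0.05, 0.26 and 0.77, none called, while the second Hba-a1 probe differed by 0.88 ± 0.28 (adjusted p = 0.0145) and the first by 0.44 ± 0.28 (adjusted p = 0.185).

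For the erythroid genes in CC brain, Slc4a1 differed from NC by 0.81 ± 0.42, Alas2 by 0.44 ± 0.47 and Hbb-y by -0.06 ± 0.21 (limma adjusted p from 0.102 to 0.811). Klf1 differed by 0.62, a description without a test, since it entered only through G20. No CC array was above background for Hbb-y, so its size is not exact. Over all genes in this comparison, 41.5% were called higher and 27.8% lower, and the list counts stand beside these shares. Of 14 heme genes, 9 were higher and 2 lower in CC brain, and of 8 hepatocyte markers 6 were higher, among them Fgg, a fibrinogen chain, by 2.91 ± 0.50 (limma adjusted p = 0.000231). Of 10 neuron markers 2 were higher and 6 lower. The summed level of the hepatocyte list was 0.71 to 2.32 in CC brain. That sum includes the 2 markers not called, Ttr and Trf, which differed by -0.10 and -0.09, and is not read as an amount of hepatocyte RNA. Whether these markers bear on the erythroid values was not tested.

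Between G20 and CC brain 1 of 6 genes was called, Hbb-y, while 67.6% of all genes were, 28.6% higher and 39.0% lower. Its levels were -4.80, -5.12, -4.78 and -4.59 in G20 and -5.59, -5.31, -5.65 and -5.13 in CC, where no array was above background. The excess in G20 was at least 1.51-fold (limma adjusted p = 0.0232). The call was lost without CC replicate 1, CC replicate 3 or G20 replicate 4 (adjusted p = 0.0589 to 0.0654), with median or quantile scaling, and with normexp correction, which turned its sign (-0.53).

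Within each brain group the 6 genes moved together only in part. In NC, replicate 2 was below its group's mean for all 6, by 1.15 for Alas2, 0.79 for Hba-a1 and 0.41 for Hbb-b1 on the log2 scale. Replicate 4 was above it for 5 of the 6, all but Klf1. In CC, replicates 1 and 2 were above the mean for Alas2, Slc4a1, Hba-a1 and Hbb-b1, and replicate 4 was below it for the same 4. In G20 the order differed by gene: replicate 3 was highest for Klf1, Slc4a1 and Alas2 and close to the mean for the globins.

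**Figure D3:**
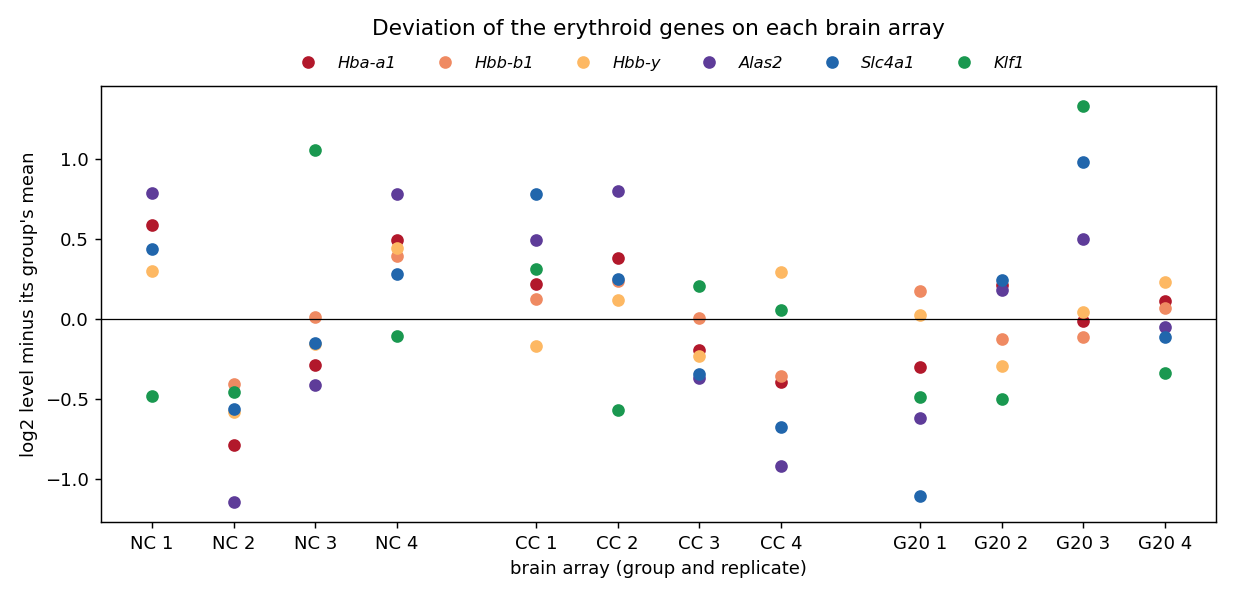
Log2 level of each gene on each brain array minus the mean of its group of 4 arrays (3 for Hbb-b1 in NC). NC replicate 2 lay below 0 for all 6 genes, and G20 replicate 3 lay near 1 or above for Slc4a1 and Klf1.

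Across the 12 brain arrays, the genes whose deviations from their group means were most like the mean of the 6 were Zfpl1 (Pearson r = 0.942), Trip13 (0.942), Alad (0.941), Slc25a37 (0.93) and Brpf1 (0.927). Alad encodes an enzyme of heme synthesis and Slc25a37 brings iron into the mitochondria of erythroid cells. In liver the 5 were LOC676330 (0.905), Slc35f5 (0.887), Prkcdbp, now Cavin3 (0.883), Cfp (0.878) and Tspan3 (0.878). These are the highest values among all genes kept in a tissue, over 12 arrays that share slides, and they are given as a description.

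In liver, 1 of 8 genes was called between G20 and NC, the embryonic globin Hba-x, against a background of 7.31% of genes in either direction and 4.31% higher. Its G20 levels were -0.91, -2.42, -1.44 and 0.33, and the NC levels were -3.62, -3.35, -2.86 and -2.20. Replicate 4 was the highest of the G20 arrays and replicate 2 fell within the NC range. The difference was 1.90 ± 0.49 (SE, n = 4; limma adjusted p = 0.0388; 3.72-fold). The call was lost without NC replicate 1, 2 or 3, CC replicate 3 or 4, or G20 replicate 1, 3 or 4 (adjusted p = 0.0512 to 0.104), without the filter on dim probes (0.054) and with only the 8 arrays compared (0.0732). With normexp correction the difference was 0.21 (adjusted p = 0.705).

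The other embryonic globins were not called in G20 liver. Hbb-bh1 stood at -2.07, -1.99, -2.07 and -1.16, against -1.63 to -0.56 in NC. Replicates 1 to 3 were below all NC arrays and replicate 4 among them, and the difference was -0.80 ± 0.37 (SE, n = 4; limma adjusted p = 0.211). The second Hbb-bh1 probe differed by -1.12 ± 0.35 (adjusted p = 0.0804). Hbb-y was 0.46, 0.25, 0.24 and 0.83, of which replicates 2 and 3 lay just below the NC range and the other 2 within it, with a difference of -0.08 ± 0.19 (adjusted p = 0.846).

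Adult globins and erythroid genes in G20 liver lay near the controls. Hba-a1 was 9.30, 9.14, 9.38 and 9.14, and 0.27 ± 0.11 above NC (SE, n = 4; limma adjusted p = 0.189). Hbb-b1 was 9.32, 9.22, 9.49 and 9.18, all above the highest NC array, with a difference of 0.30 ± 0.10 (adjusted p = 0.101). The remaining Hbb-b1 probes differed by -0.03, 0.10 and 0.37, and none of them was called. Klf1 differed by 0.01 ± 0.17, Slc4a1 by 0.10 ± 0.10 and Alas2 by -0.17 ± 0.10. In the deposited matrix Hba-a1 and Hbb-b1 were called as well, at 0.32 and 0.35 (adjusted p = 0.0372 and 0.0123).

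Of the erythroid lists in G20 liver, none of 15 heme genes and none of 18 membrane genes was called. Of 14 erythroid factors and receptors, Gata2 was higher by 0.45 ± 0.09 (SE, n = 4; limma adjusted p = 0.0117), and Tal1 and Sox6 were lower, Tal1 by 0.53 on the log2 scale (adjusted p = 0.013). Ctse, a protease of red cell precursors and other cells, was lower by 0.87 (adjusted p = 0.00589) and was the only call of 17 other erythroid genes. Summed levels of hepatocyte markers were 11.46 to 11.65 in NC and 11.45 to 11.77 in G20 liver, and those of neutrophil markers were 9.41 to 9.59 and 9.38 to 9.5.

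CC liver showed 5 of 8 genes lower than NC and none higher, in a comparison in which 40.7% of all 16365 genes were called, 19.7% higher and 21.0% lower. The lower genes were both adult globins, the embryonic beta-type globins Hbb-y and Hbb-bh1, and Klf1. Alas2 and Slc4a1 did not pass.

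Hbb-y had the largest difference. Its CC levels were -0.90, -1.12, -1.68 and -1.02, all below the NC levels of 0.27 to 0.89. The difference was -1.70 ± 0.19 (SE, n = 4; limma adjusted p = 4.17e-05), and -0.38 (adjusted p = 0.204) in the deposited matrix. Without any 1 array it stayed between -1.80 and -1.54.

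Hbb-bh1 was -1.22, -1.60, -2.78 and -2.56 in CC, so that replicates 1 and 2 overlapped NC and replicates 3 and 4 lay below it. The difference was -1.02 ± 0.37 (SE, n = 4; limma adjusted p = 0.0439), and its second probe gave -0.72 ± 0.35 (adjusted p = 0.125). Leaving out 1 of 8 arrays ended the call: NC replicate 1, 2 or 4, CC replicate 3 or 4, or G20 replicate 1, 2 or 3 (adjusted p = 0.0507 to 0.122). Hba-x, in contrast, was -2.24, -1.56, -2.29 and -1.74, with a difference of 1.05 ± 0.49 (adjusted p = 0.107), which was called without G20 replicate 4 (adjusted p = 0.0404), with only the 8 arrays compared (0.027) and in the deposited matrix (0.0456), and turned to -0.03 with normexp correction.

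The adult globins in CC liver were lower by smaller amounts. The 2 CC values left for Hba-a1 were 8.28 and 8.70, below all NC arrays, and the difference was -0.49 ± 0.14 (SE; limma adjusted p = 0.0205). For Hbb-b1 they were 8.54 and 8.67, with a difference of -0.40 ± 0.12 (adjusted p = 0.0239). Probes with all 4 CC arrays gave -0.40 for Hba-a1 (adjusted p = 0.00277) and -0.53, -0.94 and -0.30 for Hbb-b1, each called (adjusted p = 0.00209, 5.3e-05 and 0.0192). Both calls were lost without CC replicate 3 (adjusted p = 0.197 and 0.138), with normexp correction, median or quantile scaling or the replicate block, and in the deposited matrix, where both differences were -0.001.

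Klf1 was 4.15, 4.16, 4.56 and 4.54 in CC liver, below all NC arrays, by -0.45 ± 0.17 (SE, n = 4; limma adjusted p = 0.0493). The call was lost without NC replicate 1, 2 or 3, CC replicate 1 or 2, or G20 replicate 2, 3 or 4 (adjusted p = 0.0573 to 0.123), and under every other setting tried except the replicate block and outlier spots kept. Alas2 was 6.91, 6.80, 6.67 and 6.59, with a difference of 0.13 ± 0.10 (adjusted p = 0.304), and Slc4a1, on 1 array, differed by -0.11 ± 0.16 (adjusted p = 0.62).

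**Figure D4:**
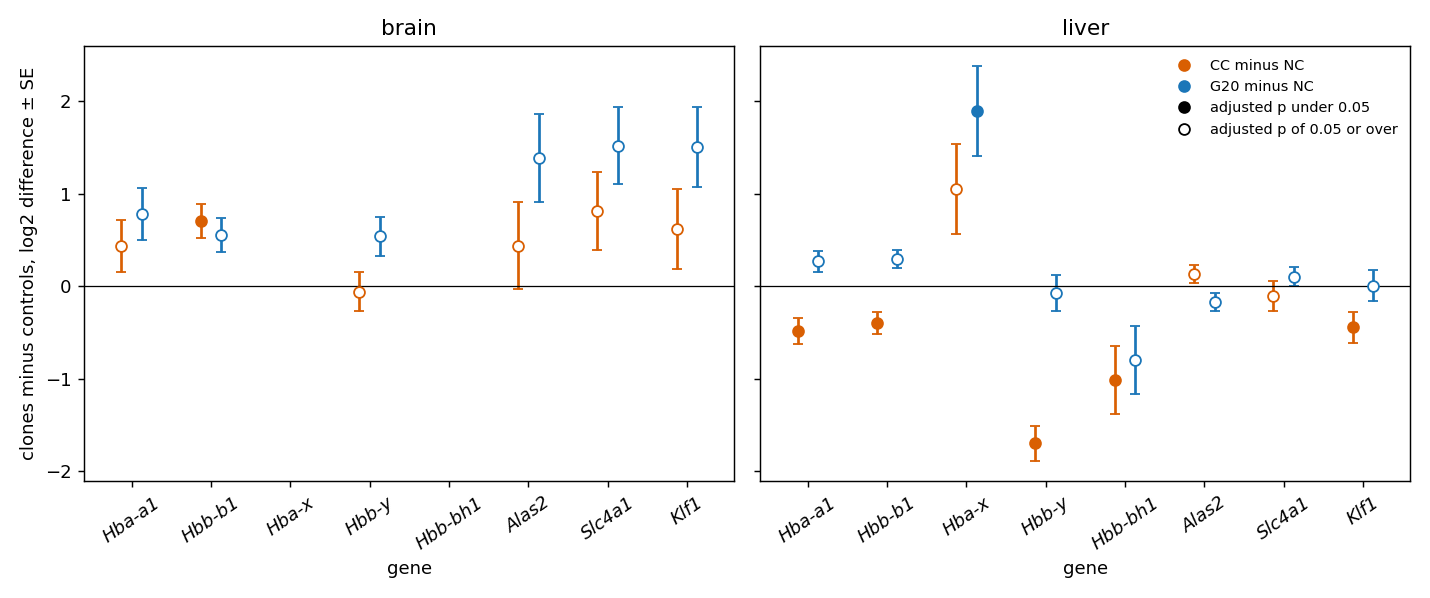
Clones minus NC controls in brain (left) and liver (right) as log2 difference ± SE from the limma fit; filled points have an adjusted p under 0.05, and Hba-x and Hbb-bh1 were not tested in brain. G20 points lie above 0 for all 6 genes in brain, and CC points lie below 0 for both adult globins, Hbb-y, Hbb-bh1, Slc4a1 and Klf1 in liver.

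Other red cell lists in CC liver stand beside the 21.0% of all genes called lower and the 19.7% called higher, and a median over all genes of 0.03. Of 18 membrane genes, 6 were lower and none higher (median -0.04), among them Gypc, encoding glycophorin C, at -0.56 ± 0.14 (SE, n = 4; limma adjusted p = 0.00826). Of 17 other erythroid genes 5 were lower and none higher (median -0.21), with the biliverdin reductase Blvrb at -1.61 ± 0.12 (adjusted p = 1.78e-06) and the carbonic anhydrase Car2 at -0.80 ± 0.10. Of 15 heme genes 3 were higher and 3 lower (median 0.17), and of 14 erythroid factors and receptors 2 were higher and 1 lower (median -0.01). Markers of other cells moved in the same samples: 8 of 11 hepatocyte markers were lower, with summed levels of 10.79 to 11.01 in CC and 11.46 to 11.65 in NC, and 7 of 12 neutrophil markers were lower, with sums of 8.91 to 9.09 against 9.41 to 9.59. Of 3 measured neuron markers 2 were higher. Their part in the erythroid differences was not tested.

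Between G20 and CC liver 5 of 8 genes were called, against 45.0% of all genes, 24.6% higher and 20.4% lower. Hbb-y was higher in G20 by 1.62 ± 0.19 (SE, n = 4; limma adjusted p = 4.77e-05), with no overlap of arrays, and the value was 0.42 in the deposited matrix (adjusted p = 0.104). Hba-a1 was higher by 0.75 ± 0.14 (adjusted p = 0.00188) and Hbb-b1 by 0.70 ± 0.12 (adjusted p = 0.00121), against 2 CC arrays each. Klf1 was higher by 0.45 ± 0.17 (adjusted p = 0.0433), and Alas2 lower by 0.30 on the log2 scale (adjusted p = 0.0264), a direction that turned with normexp correction (0.09) and in the deposited matrix (0.20). Klf1 was not called without NC replicate 1 or 2, CC replicate 1 or 2, or G20 replicate 2, 3 or 4, and Alas2 was not called without CC replicate 1 or 2 or G20 replicate 2, 3 or 4. The comparisons of G20 and CC share arrays with those against NC and are no separate evidence.

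The embryonic globins in liver were also set against the adult globins on the same array, without a test and with 2 CC arrays. Against the mean of Hba-a1 and Hbb-b1, Hba-x was higher than in NC by 1.62 on the log2 scale in G20 and by 1.44 in CC. Hbb-bh1 was lower, by -1.09 and -1.21, and Hbb-y differed by -0.36 in G20 and -1.43 in CC. The SD over arrays of the Hba-x ratio was 0.55 in NC and 1.18 in G20, and that of Hbb-bh1 was 0.44 and 0.54. With normexp correction the sign turned for Hba-x in G20 (-0.54) and for Hbb-bh1 in CC (0.33). In the deposited matrix the CC value for Hbb-y was -0.38.

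Whether the clones' difference from controls was the same in both tissues was tested directly. For G20, none of 6 genes was called, beside 3.85% of 14766 genes, 1.69% higher and 2.15% lower, and all 6 fitted values were below 0 (with normexp correction, Hba-a1 and Hbb-b1 were above it). The values were -1.55 ± 0.51 for Alas2 and -1.42 ± 0.49 for Slc4a1 (SE; limma adjusted p = 0.0895 and 0.108), and -1.498 for Klf1. With the animal as a random block, Alas2 was called (adjusted p = 0.0487), where the G20 animal is only the number in a title, since all G20 arrays share 1 source name. With each array left out, the adjusted p ranged from 0.0486 (without NC brain replicate 1) to 0.17 for Alas2, and from 0.0266 (without G20 brain replicate 1) to 0.201 for Slc4a1. Klf1 had entered the brain fit only through G20, and its value is a description. At an unadjusted limma p under 0.05, Alas2, Slc4a1 and Hbb-y passed and Hba-a1 and Hbb-b1 did not, beside 19.5% of all genes. In the other erythroid lists, 1 of 14 heme genes, 2 of 10 membrane genes, 1 of 11 factors and receptors and 1 of 15 other erythroid genes were called, all below 0. Tal1 had -0.88 ± 0.15 (limma adjusted p = 0.0021) and the blood group gene Rhd -1.53 ± 0.38 (0.0264). Add2 had -0.93 (0.0149), and Fech, in both the heme and the other erythroid list, had -0.41 (0.0388).

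For CC, 3 of 6 genes differed between the tissues, beside 54.0% of all genes, 19.4% higher and 34.6% lower. Hbb-y had -1.64 ± 0.30 (SE; limma adjusted p = 8.71e-05), Hbb-b1 -1.11 ± 0.24 (adjusted p = 0.000722) and Hba-a1 -0.92 ± 0.37 (adjusted p = 0.0414). In each the liver of CC animals was lower against NC than the brain was. No CC brain array was above background for Hbb-y, so the size of its value is not exact. A lower level there would make it smaller. Klf1 had -1.07, but it had entered the brain fit only through G20, so its value is a description without a test. Quantile normalization and the deposited matrix gave 0.17 and 0.03 for Hba-a1 and -0.14 and 0.107 for Hbb-b1. Leaving out NC brain replicate 2 or 3, CC brain replicate 1 or 2, NC liver replicate 1 or 4, or CC liver replicate 3 ended the Hba-a1 call (adjusted p = 0.0547 to 0.184).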

How the data were processed

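Brain and liver RNA of female neonates was measured on 24 single-colour arrays, 4 per group and tissue. Per the file headers, the intensity of each spot, less its background, came from Agilent's Feature Extraction software, version 9.5.3.1. The same program wrote the flags of other kinds (well above background, saturated, outlier) per the file headers. The deposited matrix of 34140 probes holds linear intensity values whose scaling by the authors no source used here gives, and 0 of its columns went unused. The CC columns carry factors per probe that the scanner files do not show. It served as an alternative.

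Processed signal of 43379 non-control spots was put on the log2 scale, spots marked as outliers were removed, spots of a probe were averaged and the 75th percentile of each array was subtracted. In a tissue, probes were tested where 1 or more groups had all 4 arrays well above background, and a gene was its brightest kept probe, which left 18299 genes in brain, 16365 in liver, 19881 for liver against brain and 14767 for the difference of differences. Probes were matched by the array's gene name or by the current symbol of their accession (23374 probes had one). Groups were compared with limma 3.58.1 in R 4.3.3 (with the data.table package, version 1.17.8) over the 12 arrays of a tissue, or all 24 for tissue comparisons, with Benjamini-Hochberg adjustment over all genes and calls at an adjusted p under 0.05. Ratios within an array are given without a test. The fitting script was tested on simulated data. Python 3.11.15, pandas 2.3.3, numpy 2.4.6 and matplotlib 3.10.9 made tables and figures. With 4 arrays per group, the number of arrays limits the precision.

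The genes, lists and tests were chosen with earlier results of these data known. Named genes are all 9 members, the called genes of each list with the largest differences (up to 4; the largest where none was called), and the 5 genes most correlated with the members. Brain and liver of an NC or CC animal share a source name in the labels; all G20 arrays share 1 source name and are told apart only by the number in their titles. Nothing else in the labels separates those animals, so p-values measure the spread between arrays. Deviations of brain and liver arrays with the same number correlated by 0.02 to 0.32 over genes. Alternatives were normexp correction (offset 50), median and quantile scaling, no filter, every probe tested, a replicate block, the deposited matrix, only the 8 arrays compared, leaving out each array and, added after seeing the data, keeping outlier spots. Some genes of the lists are not reported here.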

Additional observations from a re-analysis of the deposited data

Results flagged for a closer look

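In 6 of 44 groups of 4 arrays, 1 array lay far from the other 3, where chance marks about 1 group in 20. In brain these were Klf1 on G20 replicate 3, at a log2 level of -2.85, Hbb-bh1 on the same array, at -5.84, and Hba-x on NC replicate 4, at -6.08, which was not above background. The G20 replicate 3 array was also the only brain array on which Gata1 was above background. In liver they were Klf1 on NC replicate 3, at 5.30, Hbb-bh1 on G20 replicate 4, at -1.16, and Slc4a1 on G20 replicate 1, at 7.21, the low one.

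The difference between CC and NC was not the same in liver and brain for 3 genes by limma's test of the difference of differences: -1.64 for Hbb-y, -1.11 for Hbb-b1 and -0.92 for Hba-a1 on the log2 scale. The Hbb-y value is not exact, since no CC brain array was above background for it. Slide and scan session differ between CC and NC in both tissues and cannot be told apart from the group.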

How the results depend on the processing

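All values are log2 differences or counts of the erythroid genes called, and the cause of a change was not tested. Over 657 values of single genes under other settings, 571 kept direction and side of the threshold, 39 were no longer called, 16 became called and 31 turned sign; with 1 array left out, 1292 of 1364 kept both, 48 were lost, 12 gained and 12 turned. All 8 genes stayed higher in liver in NC under every alternative that gave a value. The count for liver against brain in CC was 5 in the deposited matrix.

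For G20 against NC in brain the replicate block gave 1 call, Klf1, which entered through G20 alone. Within a tissue the numbers are only names, so no pairing is implied. In CC against NC brain the count of 1 became 0 with normexp, quantile or the deposited matrix and 2 without a filter. In G20 against CC brain it became 0 with normexp or median scaling, 2 with quantile or the replicate block and 3 in the matrix. In G20 against NC liver it became 2 with normexp, 3 in the matrix, and 0 without a filter or with only 8 arrays. In CC against NC liver the count of 5 became 1 with normexp, 2 with median scaling or the matrix, and 3 with quantile (1 of them higher), no filter or the replicate block. In G20 against CC liver it became 3 with quantile and 2 in the matrix. For the difference of differences, the animal block gave 2 for G20 (Alas2 and Klf1), and for CC normexp and quantile gave 1 and the matrix 0. The blocks changed no other count beyond 1.5 times. Leaving out 1 array gave 0 to 1 calls in G20 against NC brain, 0 to 2 in G20 against CC brain, 0 to 1 in G20 against NC liver, 2 to 5 in CC against NC liver, 3 to 5 in G20 against CC liver, and 0 to 1 for the G20 difference of differences.

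Signs turned as follows. In CC against NC brain, Hbb-y was 1.24 with normexp and 0.062 with median scaling, Hba-a1 -0.265 and -0.031 and Hbb-b1 -0.026 and -0.108 with quantile and the matrix. In G20 against CC brain, with normexp Hbb-b1 was 0.041, Hbb-y -0.53 and Klf1 -0.27, and Hbb-b1 was 0.64 with quantile and 0.56 in the matrix. In G20 against NC liver, Alas2 was 0.37 and Hbb-y 0.03 with normexp, Klf1 -0.068 with median scaling and Hbb-y 0.046 in the matrix. In CC against NC liver, Hba-x was -0.033 with normexp, Slc4a1 0.033, 0.11 and 0.006 with median scaling, quantile and outlier spots kept, and Alas2 -0.24 in the matrix. In G20 against CC liver, Alas2 was 0.093 and Hbb-bh1 -0.50 with normexp, Slc4a1 -0.006 and -0.07 with median and quantile scaling, and Alas2 0.20 in the matrix. For the difference of differences, G20 had 0.12 for Hba-a1 and 0.32 for Hbb-b1 with normexp, and CC had 0.025 for Alas2 with normexp, 0.17 (quantile) and 0.03 (matrix) for Hba-a1 and 0.11 for Hbb-b1 (matrix). With 1 array left out, Hbb-y ranged from -0.254 to 0.088 in CC against NC brain and from -0.21 to 0.044 in G20 against NC liver, Klf1 from -0.07 to 0.17 in the latter, Hbb-bh1 from -0.029 to 0.492 in G20 against CC liver, and Alas2 from -0.61 to 0.08 in the CC difference of differences.

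Against the adult globins in liver, normexp gave -0.54 for Hba-x in G20, -0.23 for Hbb-y and 0.33 for Hbb-bh1 in CC, and -1.74 for Hbb-bh1 in G20, and the matrix gave -0.38 for Hbb-y in CC. Dim signal limits Hba-x, Hbb-bh1 and Klf1 in brain, and the top of the scanner's range limits the adult globins.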

Other observations

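Platelet and megakaryocyte markers, cells of the blood that the erythroid lists do not cover, were detected unevenly in brain. Ppbp, a platelet chemokine, was above background on 4 of 4 G20 brain arrays, 2 of 4 NC and 2 of 4 CC. Gp9, a platelet glycoprotein, was above background on 3 G20, 1 NC and 2 CC arrays. Itga2b, encoding the platelet integrin alpha IIb, was above background on 0 NC, 2 CC and 1 G20 brain arrays, and Gp1ba, another platelet glycoprotein, on none of the 12. In liver all 9 markers of the list were measured, and 2 of them, Treml1 and Pf4, were higher in CC than in NC, by 0.80 ± 0.15 and 0.38 ± 0.13 (SE, n = 4; limma adjusted p = 0.00119 and 0.0351). That count is near the share over all genes in this comparison, of which 19.7% were called higher and 21.0% lower.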
